A study of Mus musculus with 12 samples.

Results

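The middle of the subjective night was set against the middle of the subjective day in whole urinary bladder, across all probes of a 1-colour mouse expression array. The night group held the 4 arrays labelled circadian time (CT) 16 h or CT20 h. The day group held the 4 arrays labelled CT4 or CT8. These are 8 of the 12 arrays of the series, and the CT0 and CT12 arrays belong to neither group. All mice were female C57BL/6, 10 weeks old, housed for 2 weeks under 12 h light and 12 h dark and then moved to constant darkness, so the circadian times are read without a light signal. No treatment, allele or transgene is given for any group. Each time has 2 arrays. Neither the days spent in darkness nor the number of mice behind an array is given in the labels, and p-values therefore measure the spread between arrays, which may be technical. CT16 is missing from the series' design text and stands in the titles of its arrays.

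The comparison is made of pairs of times that lie 12 h apart, CT16 minus CT4 and CT20 minus CT8, and both are reported beside the pooled difference. Both night times lay on slide 3, whereas CT4 lay on slide 1 and CT8 on slide 2. Night and day arrays therefore never shared a slide, and in the pooled difference slide and phase cannot be told apart. A fit of a 24 h wave to all 12 arrays with slide as a fixed block, which uses differences within slides alone, is quoted as the within-slide value. It predicts the night mean minus the day mean from the fitted wave.

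Mice rest in the day and are active at night, and bladders store and void urine on the same rhythm. In each cell the activators BMAL1 (gene Arntl) and CLOCK or its paralog NPAS2 bind E-boxes and drive the Per and Cry genes, whose proteins return to block them. They also drive Nr1d1 and Nr1d2, which encode the REV-ERB repressors. REV-ERBs compete with the ROR activators at a shared element and hold down Arntl and Nfil3. The factors DBP, TEF and HLF activate genes through D-boxes, where NFIL3 represses them.

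Levels are log2 processed signals minus the 75th percentile of the array, so 0 is that percentile, which was 844 to 984 intensity units on the 8 arrays. Spots well above background made up 67.0% to 68.8% of each night array and 64.2% to 69.3% of each day array, and 0 spots were saturated. Replicate arrays gave r = 0.985 to 0.993 across genes, which are not independent replicates, and their log2 difference had an SD of 0.39 (CT16) to 0.59 (CT20). The 25 measured urothelial markers averaged 4.37 to 4.77 on night arrays and 4.49 to 4.73 on day arrays. The 23 contractile genes of smooth muscle averaged 5.39 to 5.54 on night arrays and 5.24 to 5.55 on day arrays, so both lists lay well above the 75th percentile on all 8 arrays. Of the 18390 genes tested, 3760 have a placeholder such as an accession for a name.

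Promoter windows are shown for genes on which the results turn and whose windows hold a clock motif. The windows are RefSeq's, on GRCm38.p6, from 250 bases before to 50 bases after an annotated start, written in the direction of transcription. Windows matched 64 of the 80 genes named by rule or by choice. The first set holds E-boxes (CACGTG, the same on both strands), marked by the capitals, in Ciart (chr3:95882179-95882478, minus strand), Cry1 (chr10:85185005-85185304, minus strand), Lonrf3 (chrX:36328159-36328458, plus strand) and Jmy (chr13:93499759-93500058, minus strand).
Ciart: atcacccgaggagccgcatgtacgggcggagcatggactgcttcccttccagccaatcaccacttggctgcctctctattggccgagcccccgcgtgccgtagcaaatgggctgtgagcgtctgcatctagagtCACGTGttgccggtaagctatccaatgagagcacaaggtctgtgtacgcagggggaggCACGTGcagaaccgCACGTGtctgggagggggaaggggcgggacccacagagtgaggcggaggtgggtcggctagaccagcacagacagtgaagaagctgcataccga
Cry1: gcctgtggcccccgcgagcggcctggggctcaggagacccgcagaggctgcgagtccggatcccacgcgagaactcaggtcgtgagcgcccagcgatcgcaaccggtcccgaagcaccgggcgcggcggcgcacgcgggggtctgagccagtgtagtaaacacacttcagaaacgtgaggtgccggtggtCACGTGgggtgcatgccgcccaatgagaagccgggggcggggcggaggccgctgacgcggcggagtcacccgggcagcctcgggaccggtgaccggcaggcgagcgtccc
Lonrf3: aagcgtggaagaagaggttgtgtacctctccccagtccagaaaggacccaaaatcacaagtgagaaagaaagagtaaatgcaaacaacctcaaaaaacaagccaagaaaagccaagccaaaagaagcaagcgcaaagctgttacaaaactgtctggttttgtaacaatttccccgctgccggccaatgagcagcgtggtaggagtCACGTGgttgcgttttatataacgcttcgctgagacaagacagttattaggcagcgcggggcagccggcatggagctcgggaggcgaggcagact
Jmy: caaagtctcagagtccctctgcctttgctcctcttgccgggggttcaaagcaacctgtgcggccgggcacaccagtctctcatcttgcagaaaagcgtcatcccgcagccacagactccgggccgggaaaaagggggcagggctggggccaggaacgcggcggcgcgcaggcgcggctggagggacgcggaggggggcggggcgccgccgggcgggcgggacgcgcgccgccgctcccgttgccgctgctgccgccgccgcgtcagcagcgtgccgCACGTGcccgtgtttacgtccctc
The second set holds the element shared by REV-ERB and ROR (TAGGTCA, or TGACCTA on the opposite strand), again in capitals, in Arntl (chr7:113207261-113207560, plus strand) and Nfil3 (chr13:52980990-52981289, minus strand).
Arntl: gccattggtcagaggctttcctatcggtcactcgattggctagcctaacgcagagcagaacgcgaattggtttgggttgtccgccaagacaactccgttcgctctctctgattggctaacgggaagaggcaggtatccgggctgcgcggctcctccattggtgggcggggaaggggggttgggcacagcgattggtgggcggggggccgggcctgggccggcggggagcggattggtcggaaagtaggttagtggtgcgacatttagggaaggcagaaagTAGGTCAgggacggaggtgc
Nfil3: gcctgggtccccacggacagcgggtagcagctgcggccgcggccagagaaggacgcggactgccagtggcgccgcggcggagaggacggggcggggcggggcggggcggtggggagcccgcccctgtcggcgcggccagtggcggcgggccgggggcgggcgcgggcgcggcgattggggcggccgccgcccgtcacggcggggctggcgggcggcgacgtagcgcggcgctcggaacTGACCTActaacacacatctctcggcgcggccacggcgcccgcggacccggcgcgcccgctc

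The Ciart window carried 3 E-boxes, at bases 135, 193 and 207 of its 300, and the other E-box windows carried 1 each. An E-box stood in 7.15% of all 32851 windows and in the windows of 1319 of the 11998 tested genes that have one. Among the 9 genes past the threshold in the pooled comparison, 8 had a window and 3 of these had an E-box (Jmy, Lonrf3 and Gpr146). Of 33 clock genes and outputs with a window, 7 had one. The REV-ERB and ROR element stood in 2.61% of all windows, and 3 of the 33 clock genes held it. A D-box (TTATGTAA or TTACGTAA, either strand) stood in 1.06% of all windows, in 2 of the 33 clock genes and in 0 of the 8. The windows of Nr1d1, Nr1d2 and Dbp, which are not shown, held 0 of these motifs, as did a second Arntl window. The capitalised matches in the windows shown do not overlap each other. A match describes the letters of a window and is no evidence of binding.

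At night 3 genes rose and 6 fell, led by Nr1d1, which was 7.95-fold lower. The pooled comparison called 9 of 18390 genes, 0.0489% of them, at an adjusted p below 0.05 (limma, 4 night against 4 day arrays). The 3 higher genes are 0.0163% of the genes tested and the 6 lower genes 0.0326%. Of the 6, Npy2r was not well above background on any night array. At an unadjusted p below 0.05 there were 3172 genes (17.2%), of which 1635 were higher (8.89%) and 1537 lower (8.36%) at night. None of the 9 genes' night arrays overlapped with its day arrays, which held for 2098 genes (11.4%) in all, 1177 higher (6.4%) and 921 lower (5.01%) at night. Such a gene has the smallest two-sided p that the exact permutation test over the 70 splits of 8 arrays can give, 0.0286. Many genes lay just beyond the threshold, with 32 below an adjusted p of 0.06 and 209 below 0.10. The count of 9 rested on single arrays: it was 8 without CT8 replicate 1 and 3 without CT8 replicate 2 or CT20 replicate 1. Leaving out either CT4 array, either CT16 array or CT20 replicate 2 gave 2. Under median scaling 0 genes were higher and 2 lower, and under quantile normalisation 1 was higher and 3 lower.

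Nr1d1 encodes REV-ERB alpha, the repressor that closes the second loop of the clock (probe on chromosome 11, 98878251 to 98878753, mm7, the build of the array files). Its levels were -1.68 and -1.65 at CT16 and -1.64 and -1.93 at CT20, against 0.99 and 1.14 at CT4 and 1.32 and 1.63 at CT8. The 4 night arrays lay close together, and all 4 day arrays lay far above them. The difference was -2.99 ± 0.14 (SE), a 7.95-fold lower level at night (adjusted p = 0.000562). It passed the threshold in both pairs, at -2.73 for CT16 minus CT4 (adjusted p = 0.00353) and -3.26 for CT20 minus CT8 (adjusted p = 0.000918), and it was the only gene to do so. The within-slide value was -3.38. In the pooled comparison Nr1d1 also remained called with any 1 of the 8 arrays left out and in all 13 other settings that were run per gene. That stability is of the pooled call, and the call for CT16 minus CT4 did not hold with every array left out. With 1 array left out that pair's difference ran from -2.80 to -2.66, and that of CT20 minus CT8 from -3.41 to -3.10. A second Nr1d1 probe gave -2.39 and another, dim one -0.61.

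Npy2r, a receptor of neuropeptide Y that sits mainly on nerve endings (chromosome 3, 82643647 to 82643706), had levels of -8.95, -8.83, -8.90 and -9.14 at night and of -6.57, -6.65, -6.08 and -5.92 by day. It was not well above background on any night array and was so on 3 of 4 day arrays. On the processed signals its level was therefore at least 1.32-fold lower at night. The bound holds for that background treatment alone. The adjusted p of 0.00344 in the pooled comparison is that of the measured difference, -2.65. It rests on night levels that each lie below their array's dimmest signal well above background, -6.91 to -6.58. Npy2r was tested because at least 4 of 12 arrays were well above background, 0 of them at night. The bound was not tested. That bound sets the day mean of -6.31 against each night array's dimmest signal well above background, in place of the measured night mean of -8.96. Npy2r stayed below the threshold of 0.05 with any 1 array left out. Its difference of -2.65 was -0.25 both with normexp background correction (adjusted p = 0.118) and in the authors' deposited value table (adjusted p = 0.108), neither past the threshold. Within slides it was -1.92 (adjusted p = 0.227).

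Jmy, which encodes a cofactor of p300 that also nucleates actin, fell 1.85-fold (adjusted p = 0.0400). Its night levels were -2.07, -2.18, -2.18 and -2.07, and its day levels -1.08, -1.24, -1.20 and -1.43. A second, dimmer Jmy probe gave a smaller difference of -0.22. Gpr146, a G protein-coupled receptor, had -0.88, -1.12, -1.11 and -1.05 at night and -0.22, -0.43, -0.10 and -0.18 by day. It fell 1.75-fold (adjusted p = 0.0482). Itga2b, an integrin subunit of platelets, had dim levels of -5.52 to -5.20 at night and -4.60 to -4.28 by day and fell 1.82-fold. Its adjusted p was 0.0482 in the pooled comparison and 0.167 in a 1-way fit over all 6 times. Night and day arrays stood apart for each of these 3 genes, yet each lost its call when most single arrays were left out: Jmy kept it in 1 of 8 such fits, and Gpr146 and Itga2b in 0 of 8. With normexp the Itga2b difference was -0.25, no longer past the threshold (adjusted p = 0.0868), against -0.87 as first given.

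Angptl7, a secreted protein of the angiopoietin-like family (chromosome 4, 147485417 to 147485476), showed the widest rise of the 3 higher genes past the threshold. It had levels of -0.43, -0.73, -1.56 and -0.56 at night and of -3.19, -3.06, -2.86 and -2.81 by day. The lowest night array, CT20 replicate 1, was still above all day arrays. The difference was 2.16 ± 0.24 (SE), 4.47-fold (adjusted p = 0.0482), and the within-slide value was 3.54. Without CT20 replicate 1 its adjusted p was 0.00279, and with any other array left out it was no longer below 0.05. Lonrf3, a RING finger protein (chromosome X, 31122021 to 31122080), had -0.32, -0.20, -0.58 and -0.72 at night and -1.66, -1.64, -1.45 and -1.56 by day. It rose 2.18-fold (adjusted p = 0.0482), with 1.31 within slides. Tmem33, a membrane protein of the endoplasmic reticulum, had 0.61, 0.64, 0.58 and 0.65 at night and 0.10, 0.11, 0.09 and 0.10 by day. It rose 1.44-fold (adjusted p = 0.0432), with little spread within either phase, and its other probes gave 0.35 and 0.32. The within-slide value of Tmem33 was 0.05, the only one of the 9 without an unadjusted within-slide p below 0.05 (0.736). Over all 18390 genes 2552 had such a p in the wave fit, and 6 were past the threshold after adjustment. Lonrf3 and Tmem33 kept their calls in 0 of the 8 fits that left out 1 array.

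**Figure D1:**
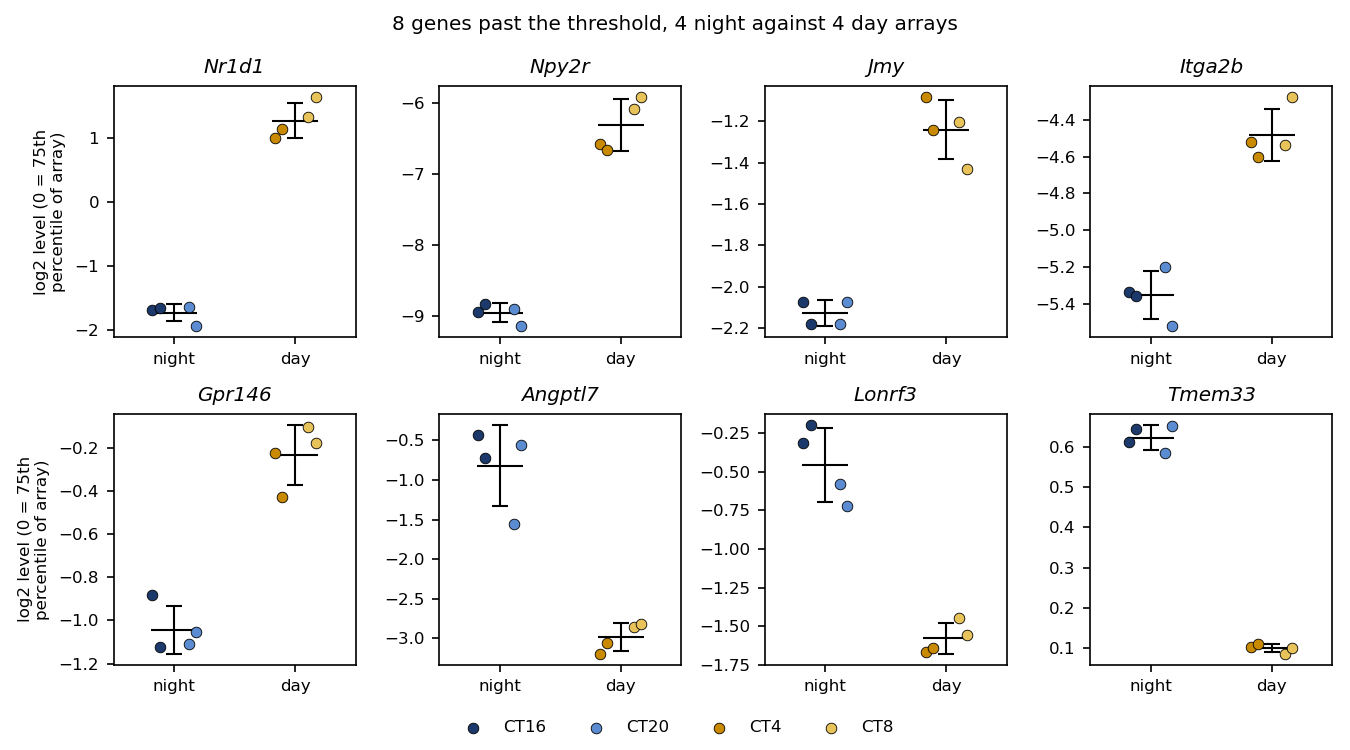
Log2 level (0 is the array's 75th percentile) of 8 of the 9 genes past the threshold, with the 4 night arrays left and the 4 day arrays right in each panel. Points are arrays, coloured by time, and bars give the mean and SD of 4 arrays. In every panel the night and day points are apart, from -1.93 to -1.64 against 0.99 to 1.63 for Nr1d1 and from 0.58 to 0.65 against 0.09 to 0.11 for Tmem33.

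Among the higher genes nearest to the threshold, Slc26a7, an anion exchanger, had the largest difference, 2.10 (4.27-fold, adjusted p = 0.0558). Its levels were -4.70 to -3.88 at night and -6.81 to -5.80 by day, where 2 of 4 arrays were well above background. Cry1, the clock repressor, was 2.03-fold higher at night and just missed the threshold (adjusted p = 0.0588). The other genes named by the smallest p were Tmeff1 (0.60), Plpp4 (0.58), Fbxw18 (1.05), the leptin receptor gene Lepr (0.68) and Glt8d2 (0.75), all with adjusted p from 0.0588 to 0.0635. Only genes whose night and day arrays did not overlap could be named by this rule, so these 7 genes lack overlap by selection.

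The spread used above includes the difference between CT16 and CT20 and that between CT4 and CT8. A 1-way fit over 6 times and 12 arrays, which takes the spread between the arrays of a time instead, gave the same differences and called 159 genes (0.865%). Of these 66 were higher at night (0.359%) and 93 lower (0.506%), and they included 8 of the 9 genes above, all but Itga2b. The median fold was 1.45 among the higher and 1.58 among the lower genes, and 9 higher and 13 lower genes passed 2-fold. In 140 of the 159 the night and day arrays did not overlap. Within slides 153 had the same direction, as had 12565 of all 18390 genes. Of the 153, 109 had an unadjusted within-slide p below 0.05, beside 2552 of all genes in either direction. No slide held both phases, so these within-slide values come from the fitted wave, on arrays that include the same 8.

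Genes singled out from that fit after their values were seen include several with known roles in vessels, smooth muscle and nerve. Gucy1a1, a subunit of the nitric oxide receptor guanylate cyclase of smooth muscle, had levels of 0.99 to 1.41 at night and 1.91 to 2.37 by day (-0.92, adjusted p = 0.0377 in the 1-way fit and 0.0588 in the pooled one). Its other probes gave -0.97 and -0.44. Asic2, an acid-sensing ion channel, had -2.23 to -1.84 at night and -1.44 to -1.02 by day (-0.84). Star, which moves cholesterol into mitochondria for steroid synthesis, was 2.76-fold lower at night, and the collagen gene Col5a3 2.58-fold lower. The metallothionein gene Mt2 was 1.65-fold lower (4.27 to 4.65 at night and 5.05 to 5.48 by day), and the sodium pump subunit gene Atp1b1 1.51-fold lower. Edn1, encoding endothelin 1, was 1.64-fold higher at night, the peptide gene Apln 1.63-fold and Esm1, an endothelial proteoglycan, 1.89-fold. All of these were called in the 1-way fit (adjusted p from 0.0112 to 0.0492) and none in the pooled one. The within-slide values had the same sign and were smaller in size than the pooled ones for all but Star, Atp1b1 and Esm1, as in Col5a3 (-0.53), Edn1 (0.30) and Apln (0.37).

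Of the clock genes and outputs, 41 of 42 listed were measured, all but Rorb. These lists were chosen with earlier results of these data known, so counts of their members among the called genes are no independent support. In the pooled comparison 1 rose (Lonrf3) and 1 fell (Nr1d1), and the median difference was 0.09, beside 0.02 over all genes tested. In the 1-way fit 3 were higher (Lonrf3, Cry1 and Nfil3) and 5 lower (Nr1d1, Nr1d2, Dbp, Tef and Ciart). The pairs had opposite signs for 25 of the 41, as they had for 43.2% of all genes.

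The activator gene Arntl had levels of -0.78 and -0.60 at CT16 and 0.59 and 0.41 at CT20, against 0.25 and -0.26 at CT4 and -2.45 and -2.02 at CT8. Night and day arrays overlapped, and the pooled difference of 1.02 ± 0.65 (SE) was not past the threshold (adjusted p = 0.443). CT20 exceeded CT8 by 2.73, 6.64-fold (adjusted p = 0.0147), whereas CT16 minus CT4 was -0.69 (adjusted p = 0.178). Npas2 had the same order at lower levels, -0.66 and 1.35 in the 2 pairs, with neither past the threshold. Clock differed by 0.09 in the pooled comparison, with levels from 1.14 to 1.51 over the 8 arrays.

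Among the repressors, Cry1 was the one whose phases did not overlap. Its levels were -2.67, -2.81, -3.10 and -3.09 at night and -3.83, -3.93, -4.26 and -3.76 by day, a difference of 1.02 ± 0.14 (SE), with 0.95 from a second probe and 1.79 within slides. Both pairs agreed in sign, at 1.14 and 0.91. The Cry1 adjusted p was 0.0588 in the pooled comparison and 0.0331 in the 1-way fit. Per2 was high at CT16 (-0.14 and -0.28) and CT8 (-0.67 and -0.65) and low at CT20 (-1.56 and -1.59) and CT4 (-2.19 and -1.59). CT16 exceeded CT4 by 1.68 (adjusted p = 0.0385), CT20 minus CT8 was -0.92, and the pooled difference was 0.38. Per1 was 1.54 lower at CT20 than at CT8 (adjusted p = 0.0393), with 0.20 for CT16 minus CT4. Cry2, at -0.18, and Per3, at -0.14, were not past the threshold in the pooled comparison or in either pair.

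Nr1d2, the paralog of Nr1d1, did not follow it through the night. Its levels were 1.51 and 1.47 at CT16 and 0.34 and 0.26 at CT20, against 1.11 and 1.25 at CT4 and 2.01 and 1.88 at CT8. CT20 was 1.64 lower than CT8 (adjusted p = 0.00116) and CT16 minus CT4 was 0.31. The activating receptor gene Rora differed by -0.05 and was not past the threshold. Of the 7 genes for kinases and ligase subunits that act on clock proteins, 0 were called, and their differences ran from -0.38 (Fbxl21) to 0.31 (Fbxw11).

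The outputs held the widest swings among the clock lists. Ciart, a repressor of CLOCK and BMAL1 (named Gm129 in the array files, chromosome 3, 95752460 to 95752519), had levels of -2.71 and -2.73 at CT16 and -4.86 and -5.31 at CT20, against -3.23 and -2.71 at CT4 and 0.69 and 0.46 at CT8. CT20 was 50.5-fold lower than CT8 (-5.66, adjusted p = 0.00116), while CT16 minus CT4 was 0.25. With normexp the CT20 level was 15.8-fold lower than that of CT8, and it was 14.7-fold lower in the authors' deposited value table, both past the threshold. Dbp had 4.60 and 3.82 at CT16 and 2.51 and 1.91 at CT20, against 4.41 and 4.77 at CT4 and 6.26 and 6.22 at CT8. It was 16.3-fold lower at CT20 than at CT8 (adjusted p = 0.00317), and -0.38 separated CT16 from CT4. Tef, a D-box activator as well, followed with -1.51 (adjusted p = 0.00577) and 0.41. Pooled over both times, Dbp was 4.62-fold lower at night and Ciart 6.51-fold lower, yet night and day arrays overlapped and neither passed the threshold (adjusted p = 0.185 and 0.262).

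Nfil3, the D-box repressor, stood on the opposite side. Its levels were 1.01, 1.25, 1.17 and 1.17 at night and 0.59, 0.44, -0.33 and -0.45 by day, with no overlap. The difference was 1.09 ± 0.24 (SE), with an adjusted p of 0.115 in the pooled comparison, 0.0112 in the 1-way fit and 0.00749 for CT20 minus CT8 alone (1.56). Usp2, a deubiquitinase, had -0.42 and -0.68 at CT16 and -2.04 and -2.45 at CT20, against -1.88 and -2.10 at CT4 and -0.01 and -0.18 at CT8, so its pairs were 1.44 and -2.15 and its pooled difference was -0.36. Tsc22d3, which glucocorticoids induce, was 1.33 higher at CT16 than at CT4 (adjusted p = 0.0406) and -0.36 separated CT20 from CT8.

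**Figure D2:**
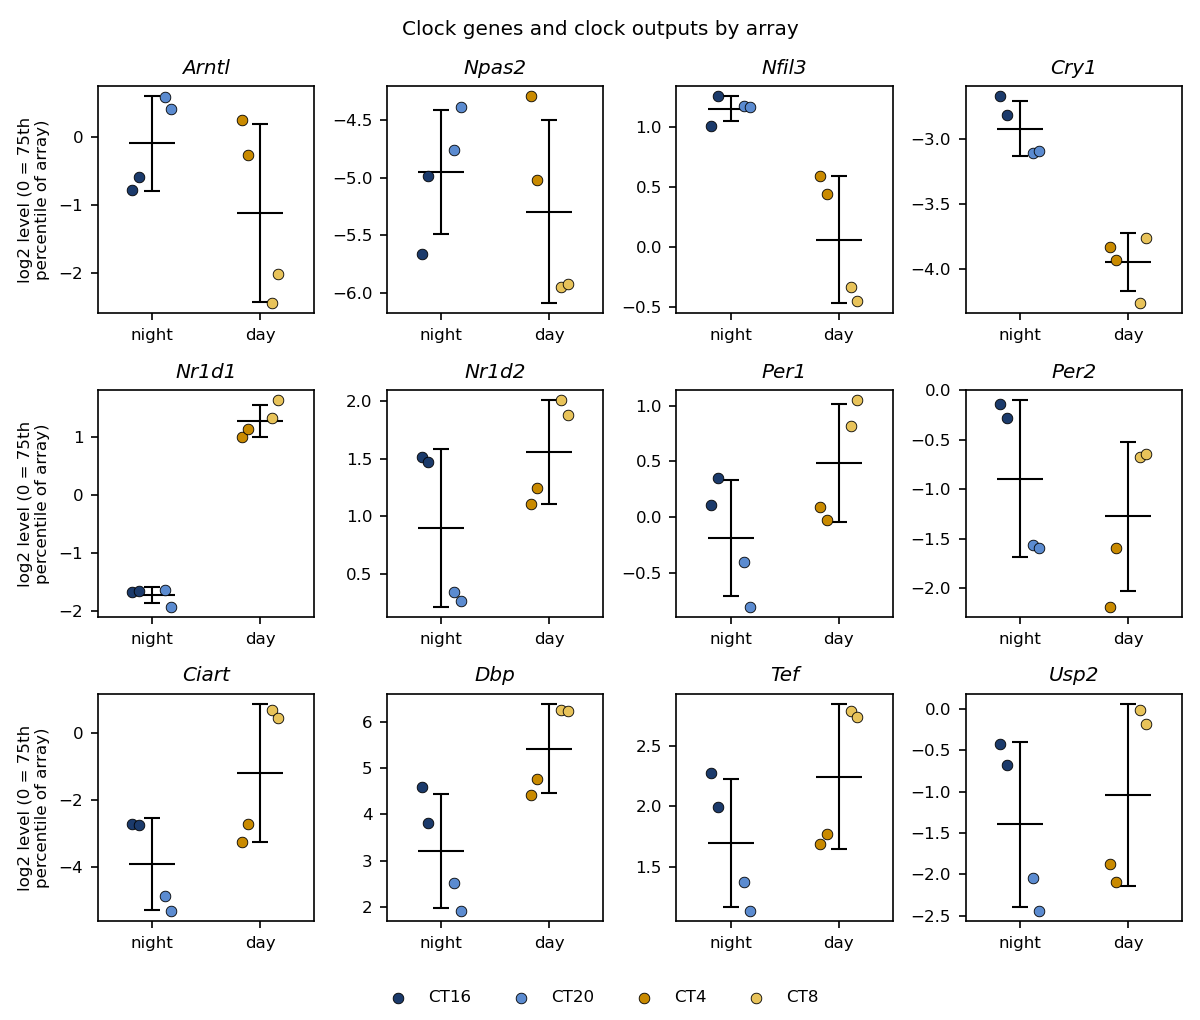
Log2 level (0 is the array's 75th percentile) of 12 clock genes and outputs, with night arrays left and day arrays right, coloured by time, and bars for the mean and SD of 4 arrays. Nr1d1, Nfil3 and Cry1 separate the phases, whereas Ciart, Dbp, Tef, Nr1d2, Per1, Per2, Usp2, Arntl and Npas2 spread within them, as in Ciart from -5.31 to -2.71 at night and from -3.23 to 0.69 by day.

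Taken alone, CT16 minus CT4 called 77 genes (0.419%) in the 1-way fit, 42 higher (0.228%) and 35 lower (0.19%). CT20 minus CT8 called 11 (0.0598%), 4 higher (0.0218%) and 7 lower (0.0381%). Nr1d1 was the 1 gene in both. Of the 77, 57 had the same sign in the other pair, and of the 11, 6 did. The median absolute difference over all genes was 0.195 for CT16 minus CT4 and 0.151 for CT20 minus CT8. Of the 11, 8 were clock genes or outputs (Nr1d1, Nr1d2, Arntl, Per1, Dbp, Tef, Nfil3 and Ciart) and the others were Esm1, Prm3, which encodes a sperm protamine and was well above background on 1 of 4 day arrays, and 1 placeholder. Of the 77, 5 were clock genes or outputs (Nr1d1, Per2, Tsc22d3, Lonrf3 and Tspan4).

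Among named genes past the threshold for CT16 minus CT4, outside the clock lists, the widest measured differences included those of Angptl7 (2.55), of Cys1, encoding the ciliary protein cystin (2.16), and of the matrix protein gene Spon2 (-2.12). Tead4, encoding a partner of YAP, was well above background on both CT4 arrays and on 0 CT16 arrays. On the processed signals its level was therefore at least 2.67-fold lower at CT16, a bound that was not tested. Its measured means were -7.63 at CT16 and -5.23 at CT4, and their difference had an adjusted p of 0.0343 in the 1-way fit. With normexp the Tead4 difference was -0.30, 1.23-fold, and no longer past the threshold (adjusted p = 0.0947). In the authors' deposited value table it was also -0.30, 1.23-fold, and not past the threshold (adjusted p = 0.0776). Both are smaller than the bound, which holds for the processed signals alone. Cys1 had 3.67 and 3.57 at CT16 and 2.79 and 2.71 at CT20, against 1.53 and 1.40 at CT4 and 2.61 and 2.11 at CT8, and the phases did not overlap. Spon2 had 1.51 and 1.79 at CT16, against 3.58 and 3.96 at CT4, and its other pair was 1.08. The count of 77 rested on every array of the pair: it was 0 without CT4 replicate 1 or CT4 replicate 2, 5 without CT16 replicate 1 and 2 without CT16 replicate 2. In the same fits 2508, 3088, 2584 and 2529 genes had an unadjusted p below 0.05. The count of 11 was 12 without CT8 replicate 1, 7 when either CT8 replicate 2 or CT20 replicate 1 was left out and 13 without CT20 replicate 2. Nr1d1, Nr1d2, Dbp and Ciart kept their call for CT20 minus CT8 in all 4 of these fits.

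The pairs were tested against each other as CT20 minus CT8 less CT16 minus CT4, which called 8 genes (0.0435%), 1 higher (0.00544%) and 7 lower (0.0381%). Arntl was the higher one, at 3.42 ± 0.35 (SE, adjusted p = 0.0491). The lower ones were Ciart (-5.91 ± 0.47, adjusted p = 0.0170), Dbp (-3.65), Usp2 (-3.59), Nr1d2 (-1.95, adjusted p = 0.0110), Tef (-1.92), the tetraspanin gene Tspan4 (-1.75) and Smpdl3b, encoding a membrane phosphodiesterase (-1.87). All but Smpdl3b were on the lists of clock genes and outputs, 7 of 41. Those lists were chosen with earlier results of these data known, so this count is no independent support. Without single arrays this count was 5 (CT16 replicate 1), 4 (CT16 replicate 2), 3 (CT8 replicate 1) or 0 (either CT4 array, CT8 replicate 2 or either CT20 array), with 1602 to 3136 genes at an unadjusted p below 0.05. All 8 genes kept their sign in these fits.

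**Figure D3:**
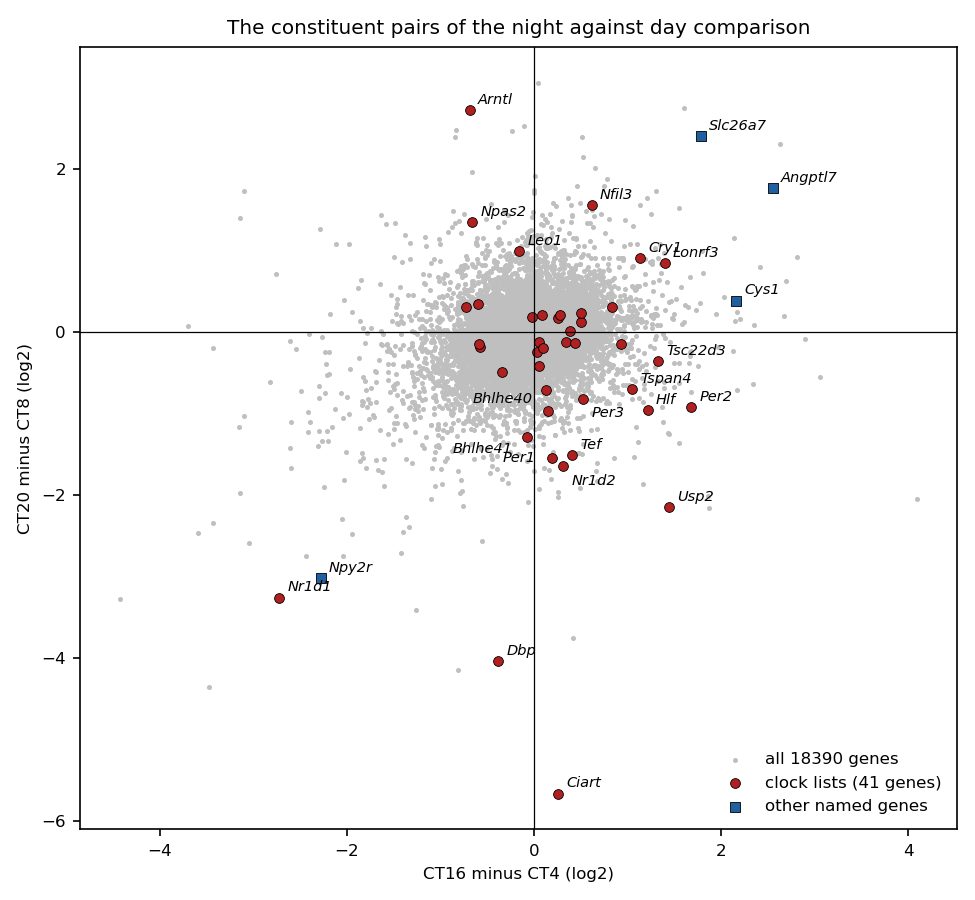
Difference of CT16 minus CT4 (x axis, log2) against CT20 minus CT8 (y axis, log2) for all 18390 genes (grey), with the 41 clock genes and outputs in red and other named genes in blue. Nr1d1 (-2.73, -3.26) lies low in both pairs and Angptl7 (2.55, 1.77) high in both, while Ciart (0.25, -5.66), Dbp (-0.38, -4.03) and Arntl (-0.69, 2.73) lie far from the diagonal.

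Other gene groups were described by lists, of which 30 of the 31 outside the clock had 0 genes called in the pooled comparison. The exception was the list of autonomic and neuropeptide receptors, through Npy2r, which was not well above background on any night array. Immediate early genes, which respond to stimulation of a cell, had a median difference of 0.23 over 18 measured members, beside 0.02 over all genes, and 16 of 18 were higher at night, as were 9965 of all 18390 genes. The median was 0.11 without CT8 replicate 1, 0.12 without CT16 replicate 2, 0.15 without CT8 replicate 2 or with normexp, 0.10 in the authors' deposited value table and 1.67 within slides. Their largest differences were those of Nr4a1 (1.54), Arc (1.35) and Egr1 (0.96), none called. Egr4 was well above background on 4 night arrays and on 0 day arrays. On the processed signals it was at least 1.34-fold higher at night, a bound that was not tested. Its measured means were -6.07 at night and -7.13 by day, and their difference had an adjusted p of 0.0646 in the pooled comparison.

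Cytosolic heat shock proteins had a median of 0.19, with 17 of 19 members higher at night and 5 of them at an unadjusted p below 0.05 (8.89% of all genes were), among them Hsph1 (0.57), Hspa4l (0.36) and Hsp90aa1 (0.28). Folding proteins of the endoplasmic reticulum had a median of 0.12, with 18 of 20 members higher, among them Pdia4 (0.54) and Hyou1 (0.39). Within slides the heat shock median was 0.19 and that of the reticulum -0.01. Cytosolic ribosomal proteins had a median of 0.07 and -0.04 within slides. Higher at night were 34 of 36, beside 9965 of all 18390 genes. With quantile normalisation their median was 0.008 with 20 of 36 higher, and with median scaling it was 0.11 with 36 of 36 higher. Cirbp, the cold-inducible RNA-binding protein, which runs against heat shock genes over the day in other tissues, had a difference of -0.64 without being called.

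The barrier, contractile and urothelial lists had small medians. The tight junction list had a median of 0.09, with 6 of 20 members at an unadjusted p below 0.05 and higher at night, among them Tjp1 (0.41), Ocln (0.39) and F11r (0.35), and 0 lower, beside 8.89% higher and 8.36% lower over all genes. Member differences ran from -1.09 to 0.41, with 5 of 20 negative. The within-slide median of this list was -0.19. Smooth muscle contractile genes had a median of 0.07 and 0.22 within slides. Uroplakins, keratins and other urothelial genes had a median of 0.06, and -0.37 within slides, where 2 of 25 were positive. Among receptors of bladder nerves and muscle, Chrm3, the muscarinic receptor that drives voiding, was 0.59 higher and the tachykinin receptor gene Tacr2 was at -0.56, neither called. The mean level of the 19 measured receptors was -4.39 to -4.27 at night and -4.11 to -3.96 by day, without overlap. That mean includes Npy2r, which was not well above background on any night array, and its part was not tested. Gene by gene, 1 receptor was higher and 1 lower without overlap, beside 6.4% and 5.01% of all genes. Connexins had a median of -0.01 over 12 members and -0.19 within slides, and their mean level was -1.79 to -1.68 at night and -1.67 to -1.52 by day, without overlap. Gene by gene, 0 connexins were higher and 1 was lower without overlap. Gja1, encoding connexin 43, had levels of -0.67, -0.84, -1.62 and -1.90 at night and of -1.36, -1.19, -0.54 and -0.93 by day. Its pooled difference was -0.25 ± 0.31 (SE, adjusted p = 0.704), with 0.52 for CT16 minus CT4 and -1.03 for CT20 minus CT8, neither past the threshold. The remaining functional lists, from glucocorticoid response, sterol synthesis and cell cycle to mitochondria, proteasome, collagens, interferon response, oxidative stress and stretch channels, had medians between -0.10 and 0.03, and 0 of their members were called. Within slides the median was 1.62 for cell cycle, with 26 of 26 members positive, -0.64 for sterol and fatty acid synthesis, with 1 of 24 positive, 0.55 for collagens, 0.45 for glucocorticoid response and between -0.16 and 0.01 for the others. Medians were -0.17 for matrix turnover, with 7 of 30 members lower and 3 higher at an unadjusted p below 0.05 (8.36% and 8.89% of all genes) and a within-slide median of 0.12, and -0.14 for water and ion transport.

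**Figure D4:**
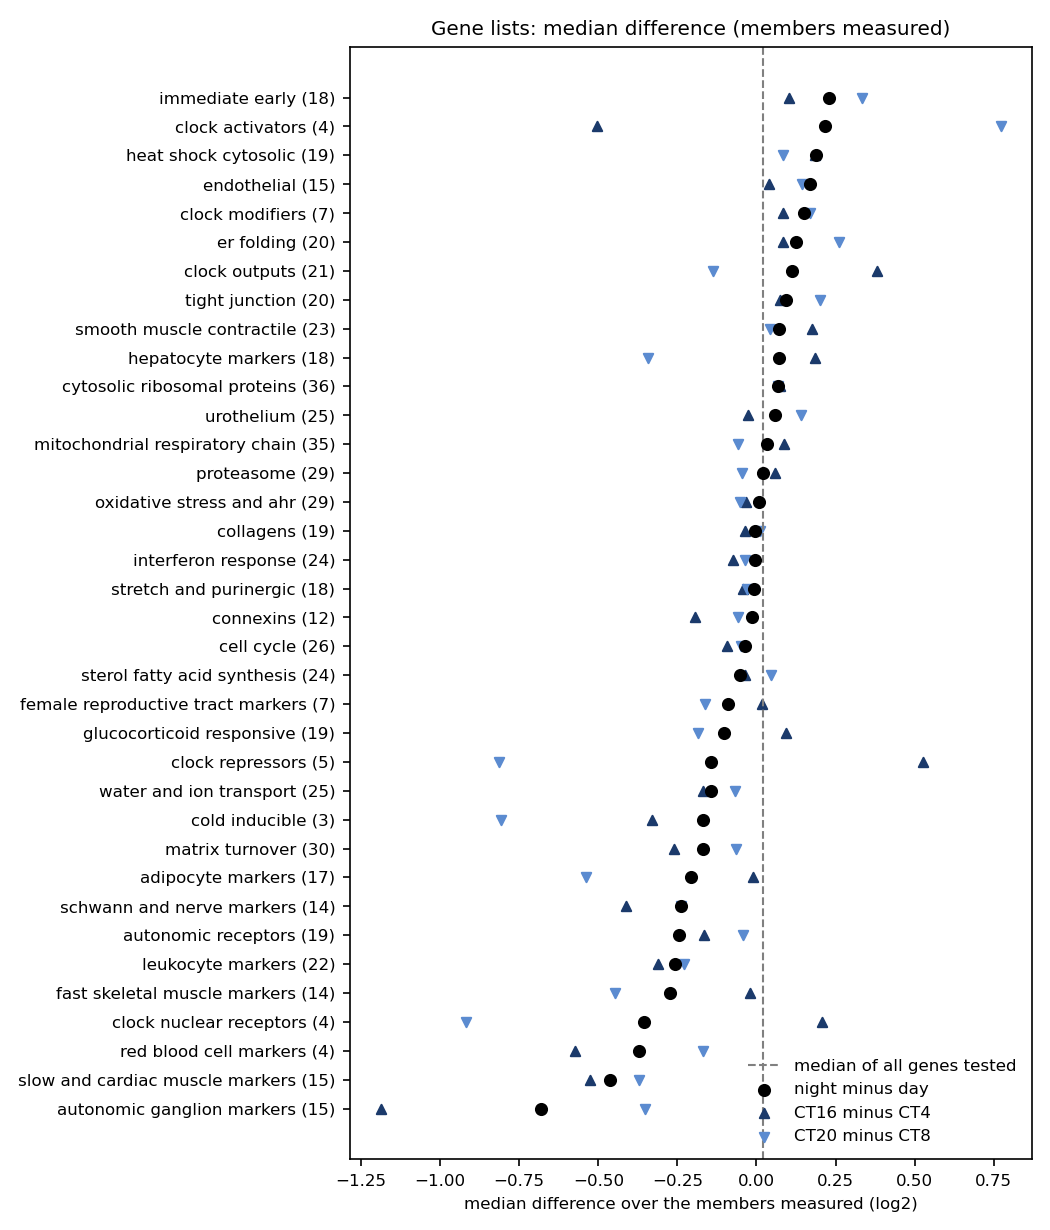
Median night minus day difference (log2) of each gene list (black circles), with the medians of CT16 minus CT4 (dark triangles) and CT20 minus CT8 (light triangles), and the number of measured members in brackets. The dashed line is the median of all genes, 0.02. Medians run from -0.68 (autonomic ganglion) to 0.23 (immediate early), and 4 of the 5 clock lists, all but the modifiers, have the pairs on opposite sides of 0.

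In whole tissue, fewer cells of a type and less RNA per cell cannot be told apart. Markers of Schwann cells and nerve had a median difference of -0.24, with 11 of 14 lower at night, and mean levels of -2.28 to -2.02 at night and -1.96 to -1.24 by day, without overlap. Gene by gene, 0 of these markers were higher and 2 lower without overlap, beside 6.4% and 5.01% of all genes. Nefl, a neurofilament gene (-2.59), and Gfap (-1.66) had the largest differences, not called. Autonomic ganglion markers had a median of -0.68 and overlapped, at -4.10 to -3.22 at night and -4.15 to -2.01 by day, with CT4 replicate 1 highest. Of these, Th, Chat, Slc18a3 and the nicotinic subunits Chrna3 and Chrnb4 were too dim to be tested. Leukocyte markers had a median of -0.26, with 19 of 22 lower at night, as were 8419 of all 18390 genes, and 8 at an unadjusted p below 0.05 (8.36% of all genes), among them the mast cell genes Cpa3 (-0.55) and Mcpt4 (-0.62). Within slides the medians were -0.05 for Schwann and nerve, 0.05 for ganglion and 0.12 for leukocyte markers. Endothelial markers had a median of 0.17, with 11 of 15 higher at night, and -0.01 within slides, where 6 of 15 were positive. Of these, 0 were called in the pooled comparison and 1 in the 1-way fit. The mean endothelial level was 0.60 to 0.80 at night and 0.41 to 0.64 by day, beside which the higher Edn1 and Apln stand. Esm1 is itself on that list, has its largest difference (0.92) and was its 1 call in the 1-way fit. The part of the endothelial markers in the Edn1, Apln and Esm1 values was not tested. The part of nerve markers in the Npy2r difference was likewise not tested.

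Slow and cardiac muscle transcripts averaged -2.18 to -1.71 at night and -1.76 to -0.71 by day, with CT4 replicate 1 highest. Hepatocyte transcripts averaged -3.70 to 0.83 at night and -2.60 to -0.85 by day, with CT20 replicate 2 highest. Without these 2 arrays, a setting chosen after the data were seen, 1 gene was called in the pooled comparison, Nr1d1, and 0 were called in CT16 minus CT4, CT20 minus CT8 or the test between them. In those 4 fits 2646, 2136, 1538 and 1266 genes had an unadjusted p below 0.05. Adipocyte markers averaged 1.56 to 2.76 at night and 1.99 to 3.40 by day, and their median difference was -0.21 with all 8 arrays and 0.16 without the 2. Fast skeletal muscle (median difference -0.27), red blood cell (-0.37) and female reproductive tract markers (-0.09) had 0 members called, and their mean levels overlapped between the phases. The mean of the fast muscle list had the opposite sign to its median, at -0.195 at night and -0.206 by day. Within slides the medians were 0.22, -0.68 and 0.13 for these lists.

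**Figure D5:**
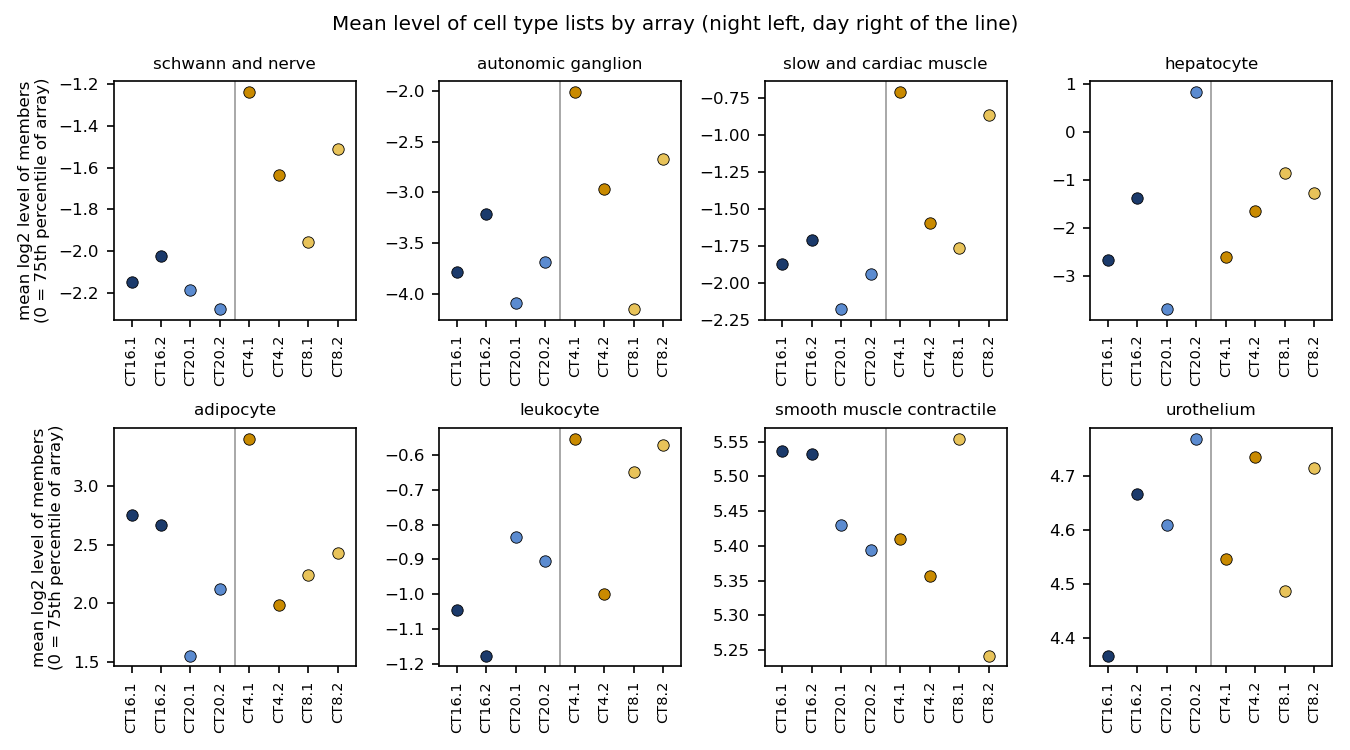
Mean log2 level (0 is the array's 75th percentile) of the measured members of 8 cell type lists on each array, night left and day right of the line. Schwann and nerve markers separate the phases (-2.28 to -2.02 against -1.96 to -1.24), CT4 replicate 1 is highest for ganglion and slow muscle, and CT20 replicate 2 for hepatocyte transcripts (0.83).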

How the data were processed

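Whole bladder RNA was measured on 12 Agilent 1-colour arrays, of which 4 night and 4 day arrays were compared. Per the file headers, each deposited scanner file gives spot intensity from Agilent Feature Extraction 10.5.1.1, background-subtracted, detrended within the array and not normalised between arrays. The authors' deposited value table holds log2 values whose making is not given in the sources used here beyond R 2.8.1, per the submitters' processing notes, and it served as an alternative. Depth has no meaning for arrays: the number of arrays limits the precision.

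Log2 processed signals were averaged per probe after control spots and outlier marks were left out, and each array's 75th percentile over probes was subtracted. A gene is the probe of highest mean level for a name, tested if well above background on at least 4 of 12 arrays. Names came from RefSeq accessions, symbols and synonyms of GRCm38.p6, and otherwise from the files. No mm7 annotation was used, so probes are not placed in exons or UTRs. The pooled difference was fitted on 8 arrays in limma 3.58.1 (R 4.3.3), the pairs and their difference in a 1-way fit on 12 arrays, all two-sided with Benjamini-Hochberg adjustment over all genes and a threshold of 0.05. The pooled fit, CT16 minus CT4 and the difference between the pairs were also run on simulated data, which held no slide effect. CT20 minus CT8 and the within-slide wave were not. Tables and figures used Python 3.11.15, numpy 2.4.6, pandas 2.3.3 and matplotlib 3.10.9.

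The members and the 36 gene lists were chosen with earlier results of these data known, so no list's count is independent support. Named genes were every measured clock gene, the 15 highest and 15 lowest called differences without overlap of the phases, with a gene name and well above background on all 4 arrays of the higher phase, and, in a direction with fewer than 5 calls, the 10 smallest p under the same conditions. They were also up to 3 called genes of each list, the 3 highest and 3 lowest calls without overlap of each pair, and the 3 largest calls of each sign in the difference between pairs. Not all are printed, some genes are not reported here, and 22 further genes were chosen after their values were seen, among them Gja1, Smpdl3b, Star, Col5a3, Gucy1a1, Mt2, Asic2, Atp1b1, Edn1, Apln, Esm1 and Egr4, as were the list members given with values. Alternatives covered background correction, scaling, filter, probe choice, variance model, slide, replicate number and each array left out.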

Additional observations from a re-analysis of the deposited data

Results flagged for a closer look

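Of 226 sets of 4 arrays examined, 5 (2.21%) held an array far from the others by Dixon's test, which chance alone gives in about 1 of 20. Nr1d1 was lowest on CT20 replicate 2 (-1.93) against -1.68 to -1.64 on the other night arrays. Por, a cytochrome P450 reductase, was highest on CT8 replicate 2 (5.68), against 5.59 to 5.60 on the other day arrays. Tmem132c was lowest on CT8 replicate 1 (-6.99), against -5.79 to -5.61 on the other day arrays, and was not well above background on any night array. The heat shock list was lowest on CT8 replicate 2 (3.46), against 3.64 to 3.67 on the other day arrays. The red blood cell list was highest on CT20 replicate 2 (1.67), the array that was also highest in hepatocyte transcripts, against 0.81 to 0.91 on the other night arrays.

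The difference between the pairs, CT20 minus CT8 less CT16 minus CT4, passed its test in limma for 8 named genes. It was 3.42 for Arntl, -5.91 for Ciart, -3.65 for Dbp, -1.95 for Nr1d2, -1.87 for Smpdl3b, -1.92 for Tef, -1.75 for Tspan4 and -3.59 for Usp2. CT16 and CT20 shared a slide, and CT4 and CT8 did not, so the part of the slides in these differences was not tested.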

How the results depend on the processing

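The pooled counts moved with most settings, while Nr1d1 was called in all 13 settings that tested genes and with any 1 array left out. Genes higher and lower at night numbered 23 and 55 with normexp, 1 and 3 with quantile normalisation, 0 and 2 with median scaling, 28 and 57 in the authors' table, 0 and 2 with no filter, 17 and 35 with a filter on all 12 arrays, and 16 and 58 over single probes. They numbered 22 and 46 with an intensity trend, 4 and 7 with array weights, 141 and 282 with slide as a random block (correlation -0.107), 66 and 93 in the 1-way fit, and 3 and 3 in the within-slide wave. With 1 array left out they ran from 0 to 1 and from 2 to 8. Without the 2 arrays highest in hepatocyte, ganglion and slow muscle transcripts they were 0 and 1. CT16 minus CT4 called 502 genes with normexp, 41 with median scaling, 340 in the authors' table, 21 with no filter, 272 with the stricter filter, 348 over single probes, 429 with the trend, 920 with array weights, 4 when fitted on 8 arrays, 0 to 5 with 1 array left out and 0 without the 2 arrays. CT20 minus CT8 called 7 with array weights, 7 to 13 with 1 array left out, 0 without the 2 arrays and 11 to 15 in the other settings that have no replicate block. The difference between pairs called 24, 20, 4, 22, 4, 23 and 19 with normexp, the authors' table, no filter, the stricter filter, single probes, the trend and array weights, 0 to 5 with 1 array left out and 0 without the 2 arrays.

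Same-numbered arrays of the compared times deviated together with r from -0.0151 to 0.370. Not every pair lay above 0.1 and the labels give the numbers no meaning, so they were not taken to pair samples. A block for replicate number gave 0 higher and 2 lower genes pooled, 62 and 7 for the pairs and 5 for their difference. Slide as a random block could not be fitted for the pairs, where slide follows from time. Directions turned in the within-slide wave for Clock (-0.04), Npas2 (-0.0042), Per1 (0.87), Per3 (0.66), Rora (0.049), Csnk1e (0.044), Rgs16 (0.88) and Tmem132c (0.29). With single arrays left out the difference ran from -0.37 to 0.16 for Per3, from -0.13 to 0.02 for Rora (0.019 and 0.016 the positive values), from -0.10 to 0.41 for Hlf, from -0.0040 to 0.23 for Noct and from -0.25 to 0.023 for Rgs16. It was 0.011 for Por under median scaling and 0.029 for Rgs16 without the 2 arrays. Of these, Tmem132c was called in the 1-way fit (adjusted p = 0.0491) and the others in neither fit, and the cause was not tested.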
